A study of Mus musculus with 2 samples.

Results

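The 10 genes described here, Sorcs3, Kctd4, Cntn3, Zcchc12, Rprm, Nrn1, St18, Brinp2, Cxcl14 and Pdzrn4, were taken from 31053 listed genes as candidates that divide Barhl neurons. They were named from earlier results on the same counts, so how they divide these cells is a description and was not tested. A Barhl cell was any retained cell with at least 2 UMIs (unique molecular identifiers, 1 per captured RNA molecule) of Barhl1 and Barhl2 together. These cells were split by 3 other genes. The Robo3/Lhx2 side had a UMI of Robo3 or Lhx2 and none of Robo2, and the Robo2 side had a UMI of Robo2 and none of Robo3 or Lhx2.

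The study differentiated MM13, a mouse embryonic stem cell line, to day 9 with retinoic acid (RA) or with retinoic acid and bone morphogenetic protein 4 (RA+BMP4). The labels name no transgene or mutation in either group, and the sources used here do not state the doses. Single cells were captured with the 10x Genomics Chromium 3' v3 chemistry, which counts the 3' ends of transcripts, as 1 library for each condition. A difference between the conditions therefore cannot be told apart from a difference between 2 libraries, no p-value was computed, and every interval below is a 95% interval for counting error only.

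Barhl1 and Barhl2 are homeodomain transcription factors of the dI1 interneurons, the most dorsal neurons of the spinal cord, which arise from Atoh1-expressing progenitors beside the roof plate. In the embryo dI1 neurons form commissural cells, whose axons cross the ventral midline, and ipsilateral cells, whose axons stay on their own side. Slit proteins at the midline repel axons through Robo1 and Robo2, Robo3 counters that repulsion before crossing, and Lhx2 and Lhx9 are LIM homeodomain factors of dI1 neurons. The 10 genes encode proteins of several other kinds: surface and sorting proteins (Sorcs3, Cntn3, Nrn1), nuclear and cell cycle proteins (Rprm, Zcchc12, St18), other intracellular proteins (Kctd4, Pdzrn4) and proteins of the secretory pathway (Brinp2, Cxcl14).

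The RA library held 122110565 UMIs and the RA+BMP4 library 115268932, and 5896 and 8333 cells were retained with medians of 14191.5 and 10464 UMIs. The libraries shared 43 barcode sequences. Barhl cells numbered 145 in RA (2.46% of cells) and 1577 in RA+BMP4 (18.9%), with median depths of 13962 and 9329 UMIs. At least 2 UMIs of the neuronal tubulin Tubb3 were found in 97.2% of the RA and 97.8% of the RA+BMP4 Barhl cells. Of the 6 dI1 markers, 5 (Barhl1, Barhl2, Lhx2, Lhx9 and Atoh1) were at least 2-fold higher in Barhl cells than in the other cells of each library, the first 2 because they define the cells. In RA, 40.7% of Barhl cells also had at least 2 Atoh1 UMIs and 28.3% at least 2 of the progenitor gene Sox2, against 10.8% and 6.91% in RA+BMP4. The Robo3/Lhx2 side held 78 RA and 541 RA+BMP4 cells and the Robo2 side 27 and 589. A further 14 and 270 cells had UMIs of both kinds, and 26 and 177 had neither.

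Sequence upstream of the start site was available for 6 of the 10 genes (RefSeq, GRCm38.p6). The 3 shown here lay higher on the Robo2 side and have a RefSeq start that is also the start of the GENCODE vM21 gene, so the bases before genes of 1 side can be read side by side. Each line gives the 250 bases before the start, 5' to 3' on the gene's strand, with TAAT or its complement ATTA, the core bound by many homeodomain proteins, in capitals. The windows are chr19:48205775-48206024 on the + strand for Sorcs3, chr2:54085553-54085802 on the - strand for Rprm and chrX:36195654-36195903 on the + strand for Zcchc12.
Sorcs3: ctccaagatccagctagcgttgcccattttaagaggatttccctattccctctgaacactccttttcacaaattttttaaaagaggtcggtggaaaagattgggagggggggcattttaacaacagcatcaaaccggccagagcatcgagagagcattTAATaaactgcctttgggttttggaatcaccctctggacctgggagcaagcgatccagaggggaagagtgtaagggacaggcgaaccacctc
Rprm: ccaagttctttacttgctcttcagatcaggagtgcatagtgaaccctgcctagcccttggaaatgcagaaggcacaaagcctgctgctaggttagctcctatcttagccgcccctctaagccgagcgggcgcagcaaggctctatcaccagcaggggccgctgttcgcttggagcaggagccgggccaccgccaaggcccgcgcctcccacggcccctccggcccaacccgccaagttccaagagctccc
Zcchc12: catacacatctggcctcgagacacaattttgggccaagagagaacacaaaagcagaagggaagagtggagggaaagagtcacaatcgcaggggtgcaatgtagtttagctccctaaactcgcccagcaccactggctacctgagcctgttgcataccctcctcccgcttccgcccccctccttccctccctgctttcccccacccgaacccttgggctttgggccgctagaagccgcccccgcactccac
Sorcs3 had 1 match on both strands together, 92 bases before the start, and Rprm and Zcchc12 had none, while 54.9% of all 32851 mouse windows of 250 bases hold at least 1. The longer word TAATTA, whose matches are also matches of TAAT, was in none of the 3 windows and in 4.84% of all windows, searched like the next words on both strands. None of the 3 held TAATTG, found in 7.17% of all windows. None held TAAACG, found in 2.76%, or the E-box CAGCTG, found in 13.0%. In the windows of the other members, Cntn3 had 4 TAAT matches, Cxcl14 none, and the Pdzrn4 starts 2 and 7. The 3 windows shared no searched word, and whether these words have a part in the side of a gene was not tested.

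In RA+BMP4, 5 members lay toward the Robo2 side and 3 toward the Robo3/Lhx2 side. A gene counts as apart here at 20 CPM (counts of the gene per 1000000 summed UMIs of the group) or more in either group and a ratio of at least 2. Of all 7244 genes tested, 4.43% were higher on the Robo2 side and 3.29% higher on the Robo3/Lhx2 side, 7.72% in all. Since the 10 genes were chosen on such a split, nothing is read from these counts. Of the 10 members 9 reached 20 CPM, Nrn1 stayed below a 2-fold difference, and Cxcl14 was nearly absent from Barhl cells, so its label as a divider of these cells did not hold in the counts. In RA, 8 members reached 20 CPM, 4 were higher on the Robo2 side and 2 on the other, where 7.06% and 4.99% of all 7120 tested genes were. The median log2 ratio of the members tested (Robo2 side over the other) was 2.02 in RA+BMP4 and 0.70 in RA, and it was 0.02 and 0.00 over all genes tested. These medians pool members of both sides that were chosen on such a split, so nothing is read from them either.

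Among the surface and sorting genes, Sorcs3 encodes a sortilin-family receptor that sorts cargo proteins in neurons (chr19:48206025-48805505, + strand). Its level was 82.3 CPM (74.9 to 90.3) on the Robo3/Lhx2 side and 335 CPM (319 to 351) on the Robo2 side of RA+BMP4, a 4.07-fold difference (3.67 to 4.52). Cells with UMIs of both kinds had 236 CPM and cells with neither 49.7 CPM, so the order followed Robo2. In RA the same groups had 33.1 and 99.6 CPM from 39 counts each, a 3.01-fold difference (1.88 to 4.81).

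Cntn3, a GPI-anchored contactin of the immunoglobulin superfamily that mediates contact between neurons (chr6:102162655-102573101, - strand), had 45.1 CPM (39.6 to 51.0) on the Robo3/Lhx2 side and 211 CPM (199 to 224) on the Robo2 side of RA+BMP4. That is a 4.68-fold difference (4.07 to 5.39), and the RA values of 11.9 and 91.9 CPM (14 and 36 counts) gave 7.73-fold (4.07 to 15.5). An antisense gene lies within Cntn3, and the strand setting of the counting is not given in the sources used here.

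Nrn1 encodes neuritin, a small GPI-anchored protein that promotes neurite growth (chr13:36725361-36735131, - strand, inside the oppositely oriented Fars2). It went the other way, with 144 CPM (135 to 155) on the Robo3/Lhx2 side and 86.4 CPM (78.7 to 94.6) on the Robo2 side of RA+BMP4. The 1.67-fold difference (1.49 to 1.88) exceeded counting error but not the 2-fold limit. In RA it had 34.8 and 30.6 CPM, 41 and 12 counts, and the interval of the Robo3/Lhx2 side over the other, 0.586 to 2.38, held 1. Cells with neither kind of UMI had 26.8 CPM in RA+BMP4 and no count in RA.

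Rprm encodes reprimo, a small membrane protein known as a p53 target that halts the cell cycle (chr2:54084093-54085552, - strand). Its Robo3/Lhx2-side level in RA+BMP4 was 46.0 CPM (40.5 to 52.0) and its Robo2-side level 468 CPM (450.1 to 487), a 10.2-fold difference (8.95 to 11.6). Both kinds of UMI together went with 321 CPM. The RA levels were 15.3 and 140.5 CPM from 18 and 55 counts, 9.19-fold apart (5.31 to 16.6). Of these 55 counts, 54 came from the 15 cells at or above the median share of older neuron genes in Barhl cells. Below that median the ratio of the Robo2 side over the other was 0.40 (0.0087 to 3.30), from 1 and 6 counts.

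Zcchc12, a zinc finger protein also named Sizn1 and known as a coactivator in BMP signalling (chrX:36195904-36199158, + strand), had 15.6 CPM (12.5 to 19.3) on the Robo3/Lhx2 side and 170.5 CPM (159.6 to 182) on the Robo2 side of RA+BMP4. The difference was 10.9-fold (8.74 to 13.8). RA gave 4 and 6 counts, 3.40 and 15.3 CPM, which is below the 20 CPM limit, and the 4.51-fold ratio had an interval of 1.07 to 21.7.

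St18, a zinc finger transcription factor of the Myt1 family that acts during neuronal differentiation (chr1:6487231-6860940, + strand), lay toward the other side. In RA+BMP4 it had 66.1 CPM (59.5 to 73.3) on the Robo3/Lhx2 side and 3.18 CPM (1.85 to 5.09, 17 counts) on the Robo2 side, 20.8-fold lower (12.8 to 36.1). Among named genes at least 2-fold higher on the Robo3/Lhx2 side, its ratio ranked 5 of 229, with 2 of those ahead of it being the gating genes Robo3 and Lhx2. RA showed 115 CPM (96.2 to 136) against 12.8 CPM (4.15 to 29.8, 5 counts), 8.98-fold (3.76 to 28.1). Under a stricter cell filter (2000 genes or more, mitochondrial share up to 5%), which left 6 RA cells on the Robo2 side and 9 on the other, the log2 ratio of the Robo2 side over the other was -0.23 and St18 was no longer apart in RA.

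Kctd4, a member of the BTB-domain KCTD family (chr14:75955009-75966206, + strand, inside the oppositely oriented Gtf2f2), had 12.7 CPM (9.92 to 16.1) on the Robo3/Lhx2 side and 156 CPM (145 to 166) on the Robo2 side of RA+BMP4. That is 12.2-fold (9.57 to 15.8), the highest ratio toward Robo2 among the members, with an interval that overlapped those of Zcchc12 and Rprm. In RA there was 1 count on the Robo3/Lhx2 side against 15 on the Robo2 side, 0.85 and 38.3 CPM. The ratio of these counts was 45.1 with an interval of 6.94 to 1898, and with the 1 count set to 3, as for the calls, the log2 ratio was 3.91.

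Pdzrn4, which carries PDZ and RING finger domains (chr15:92396881-92771819, + strand, with an antisense gene inside), had 189 CPM (178 to 201) on the Robo3/Lhx2 side and 78.5 CPM (71.2 to 86.4) on the Robo2 side of RA+BMP4, a 2.41-fold difference (2.15 to 2.71). Cells with both kinds of UMI had 182 CPM, close to the Robo3/Lhx2 side. RA gave 117 and 102 CPM from 138 and 40 counts, and the interval of the Robo3/Lhx2 side over the other, 0.802 to 1.68, held 1. With Lhx2 alone in place of Robo3 or Lhx2, the RA+BMP4 log2 ratio of the Robo2 side over the other was -0.28 and Pdzrn4 no longer reached the 2-fold limit.

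Brinp2, named for its induction by BMP and retinoic acid in neural cells (chr1:158245269-158356326, - strand), had 61.1 CPM (54.7 to 67.9) on the Robo3/Lhx2 side and 20.9 CPM (17.2 to 25.2) on the Robo2 side of RA+BMP4, 2.92-fold apart (2.35 to 3.64). Its RA values were 32.3 and 15.3 CPM, 38 and 6 counts, and the 2.11-fold ratio had an interval of 0.884 to 6.10. The 14 RA cells with both kinds of UMI had 76.0 CPM (47.0 to 116), above the Robo3/Lhx2 side. With Lhx2 alone as the gate for that side the RA direction turned (log2 ratio of Robo2 side over the other 0.18), so no side is given for Brinp2 in RA.

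Cxcl14, a secreted chemokine (chr13:56288643-56296551, - strand), had 23 counts in all 1577 RA+BMP4 Barhl cells and 1 count in the 145 RA cells. The sides held 5 and 13 counts in RA+BMP4, 0.909 and 2.43 CPM, with a ratio interval of 0.895 to 9.58. Both levels lay far below 20 CPM, and the share of thinned Barhl cells with a UMI, 0.674%, was below the 4.57% in cells gated on pluripotency genes in the same library. Cells of that gate held Cxcl14 UMIs themselves, so they give no background level for this gene.

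**Figure D1:**
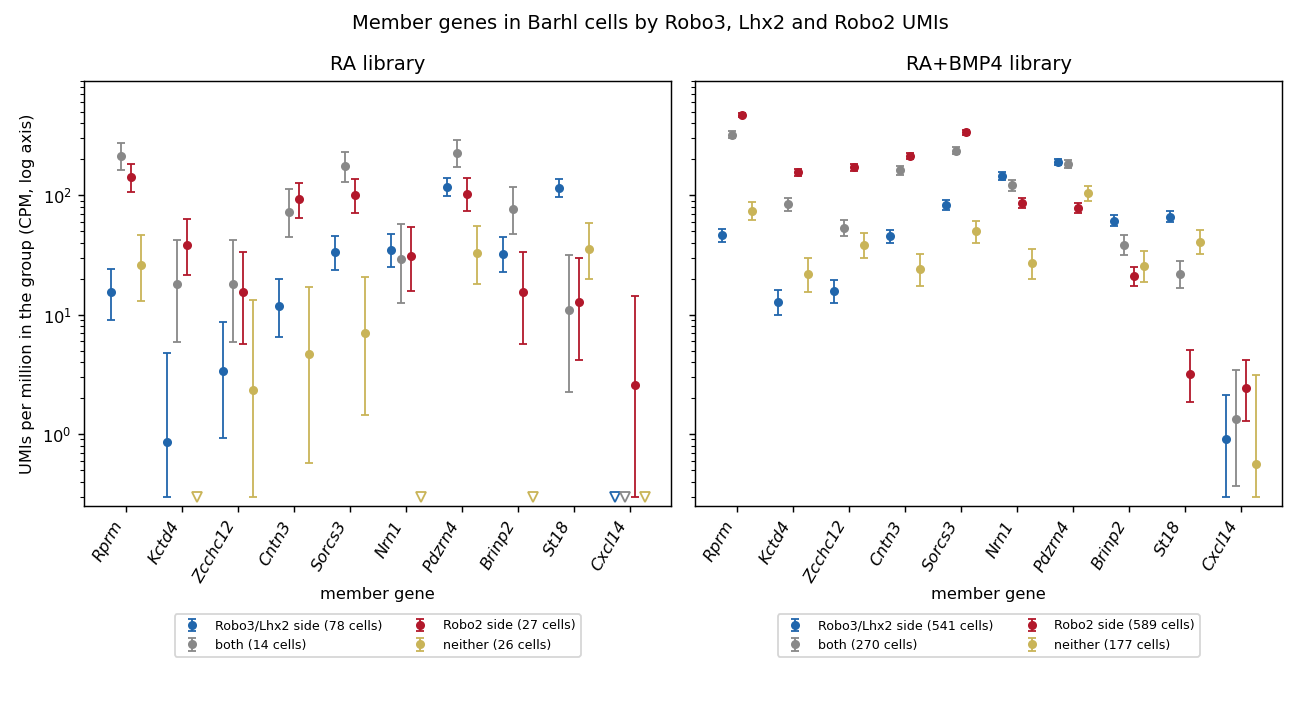
Level of each member (CPM, log axis) in the 4 groups of Barhl cells, RA on the left and RA+BMP4 on the right. Points are summed UMIs scaled to CPM with 95% Poisson intervals, bars that meet the lower edge of the axis run on below it, and open triangles mark 0 counts. In RA+BMP4 the Robo2 side (red) is above the Robo3/Lhx2 side (blue) for Rprm, Kctd4, Zcchc12, Cntn3 and Sorcs3 and below it for Nrn1, Pdzrn4, Brinp2 and St18.

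The shares of cells gave the same order as the levels. After each RA+BMP4 cell was thinned to 5000 UMIs, a Sorcs3 UMI was found in 73.0% of the Robo2 side and 27.7% of the Robo3/Lhx2 side (83.02% and 38.3% before thinning). For Rprm the thinned shares were 71.9% and 16.0% (82.2% and 25.5% before), and for St18 they were 1.08% and 22.5% (2.04% and 35.3% before). Cells gated on the pluripotency genes Dppa5a, L1td1 and Zfp42, which should lack these genes and had a median of 38675 UMIs before thinning (8711 and 9548 on the Robo2 and Robo3/Lhx2 sides), gave thinned shares of 0.571% for Sorcs3 and for St18 and of 4% for Rprm. St18 on the Robo2 side was therefore close to that background. At least 2 of the 5 Robo2-side genes had a UMI in 85.8% of 555 thinned Robo2-side cells. The share was 18.7% of 519 Robo3/Lhx2-side cells and 4.90% of the cells outside the Barhl group. In RA the corresponding shares were 48.1% of 27, 5.19% of 77 and 2.43%. The 5 genes were picked as higher on the Robo2 side of RA+BMP4, so the order of the sides there follows from that choice. Whether they occur in the same cells beyond their separate shares was not tested.

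Levels of some members also changed with the number of Robo2 UMIs. When RA+BMP4 cells were thinned to 5000 UMIs and gated again, 1109 Barhl cells remained, of which 531 cells had 0 Robo2 UMIs, 133 had 1, 96 had 2 and 349 had 3 or more. Sorcs3 had 101, 274, 371 and 382 CPM in these groups, and Rprm had 95.3, 379, 358 and 521 CPM. St18 had 56.1, 13.5, 4.17 and 0.573 CPM, and Pdzrn4 had 182, 156, 135 and 76.2 CPM. Zcchc12 did not rise throughout, with 26.7, 149, 173 and 127 CPM, and Nrn1 had no steady order, with 135, 114, 133 and 108 CPM. In RA the groups with Robo2 UMIs had under 20 cells and are not described. For Sorcs3 and Rprm the largest step lay between 0 and 1 UMI, and for Pdzrn4 it lay between 2 and 3 or more.

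Genes of young and of older neurons were also at different levels on the 2 sides. Summed levels of 14 genes of older neurons were 5898 CPM on the Robo3/Lhx2 side and 8317 CPM on the Robo2 side of RA+BMP4, and those of 12 genes of young neurons were 4464 and 2143 CPM. In RA both sums were higher on the Robo3/Lhx2 side, with 4233 and 3108 CPM for the older and 5019 and 3026 CPM for the young neuron genes. In RA+BMP4, of the young neuron genes, 9 reached 20 CPM, none was at least 2-fold higher on the Robo2 side and 4 were lower (Nhlh1, Dll3, Igfbpl1 and Cdkn1c). Of the older neuron genes 11 did, with 3 higher (Syt1, Gap43 and Mapt) and none lower. Medians of the tested log2 ratios were -0.92 for the young and 0.33 for the older list, against 0.02 over all genes. Of all genes tested, 4.43% were higher and 3.29% lower on the Robo2 side. When RA+BMP4 Barhl cells were divided at their median share of older neuron genes, the Rprm ratio of the Robo2 side over the other was 8.45 in the upper and 8.73 in the lower group. For Sorcs3 it was 2.95 and 3.97, for Kctd4 9.16 and 11.98, and for Zcchc12 7.05 and 11.1. Cntn3 moved more, from 2.83 in the upper to 7.77 in the lower group. St18 was 20.96-fold lower on the Robo2 side in the upper and 13.5-fold lower in the lower group. The Pdzrn4 difference rested on the upper group, where the Robo3/Lhx2 side was 3.90-fold higher, against 1.35-fold in the lower group. Nrn1 passed the 2-fold limit in the upper group, where it was 2.24-fold higher on the Robo3/Lhx2 side, and not in the lower (1.49-fold). All 8 genes that were apart kept their direction in both groups.

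In RA the sides differed in other ways too. The 5 pluripotency markers summed to 480.1 CPM on the Robo2 side and 31.4 CPM on the Robo3/Lhx2 side. The 4 of them that reached 20 CPM were all higher on the Robo2 side, where 7.06% of all tested genes were. Of its 27 cells 1 met the pluripotency gate and 9 had at least 2 Sox2 UMIs. Without such cells (18 and 64 cells left, an alternative chosen after the data were seen) Sorcs3, Kctd4, Cntn3, Rprm and also Zcchc12 were at least 2-fold higher on the Robo2 side and St18 lower, and Brinp2 had a log2 ratio of -0.31. All 39 Sorcs3 counts and 15 Kctd4 counts of the RA Robo2 side came from the 15 cells in the upper group by older neuron genes. The same held on the Robo3/Lhx2 side, whose 39 Sorcs3 counts and 1 Kctd4 count all came from its 43 upper-group cells. In the lower group (12 Robo2-side and 35 Robo3/Lhx2-side cells) neither side had a count of these 2 genes, so their sides cannot be compared there. No member reached the limit toward Robo2 in that group.

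Related genes fixed by family were also compared between the sides. Of 14 relatives that reached 20 CPM in RA+BMP4 Barhl cells, 3 were higher on the Robo2 side (Cntn1, Cntn5 and Myt1l) and 3 lower (Sorcs2, Cntn2 and Pdzrn3), with a median log2 ratio of -0.03. Cntn5 had 2.36 and 64.9 CPM on the Robo3/Lhx2 and Robo2 sides, in the direction of Cntn3, while Cntn2, a contactin of commissural axons, had 409 and 79.8 CPM. Sorcs2 had 24.9 and 8.97 CPM, opposite to Sorcs3, and Myt1l had 165 and 423 CPM, opposite to St18. Pdzrn3 had 38.5 and 6.17 CPM, the same direction as Pdzrn4. Of 16 tested genes of midline guidance, 4 were higher on the Robo2 side (Robo2, Neo1, Unc5d and L1cam) and 3 lower (Robo3, Nrp2 and Cntn2), 2 of these 7 being gating genes. Of all 7244 genes tested, 4.43% were higher and 3.29% lower on the Robo2 side. Both lists were chosen with earlier results of these data known, so nothing is read from these numbers of genes.

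The genes at the ends of the RA+BMP4 ratio, gating genes aside, give a scale for the members. Toward Robo2 the highest ratios were those of Fam135b (0.363 and 44.5 CPM on the Robo3/Lhx2 and Robo2 sides), Slitrk6 (0.545 and 34.8 CPM) and Car10 (0.545 and 29.4 CPM). Toward Robo3 and Lhx2 they were those of Nrgn (58.3 and 0.935 CPM) and Neurod6 (20.2 and 0.935 CPM), followed by St18. Kctd4 ranked 14 of 302 genes toward Robo2, Zcchc12 21, Rprm 23, Cntn3 67 and Sorcs3 85, and toward the other side Brinp2 ranked 113 and Pdzrn4 167 of 229.

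The Robo3/Lhx2 side was not uniform for the members, a split that was chosen after the data were seen. In RA+BMP4 111 of its cells had Lhx2 without Robo3, 142 had both and 288 had Robo3 without Lhx2. Sorcs3 had 7.23, 41.0 and 135 CPM in these 3 groups, and Cntn3 1.81, 23.9 and 74.0 CPM. Pdzrn4 followed the same order with 84.9, 175 and 239 CPM. St18 had 77.7, 105 and 39.5 CPM, lowest where Lhx2 was not found. Nrn1 (60.5, 187 and 153 CPM) and Brinp2 (36.1, 100.2 and 48.8 CPM) were highest where Lhx2 and Robo3 were found together. Levels of the older neuron genes in the 3 groups were 3015, 6375 and 6765 CPM, and those of the young neuron genes 4979, 5328 and 3773 CPM. The part of neuronal age in the members' differences within this side was not tested.

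**Figure D2:**
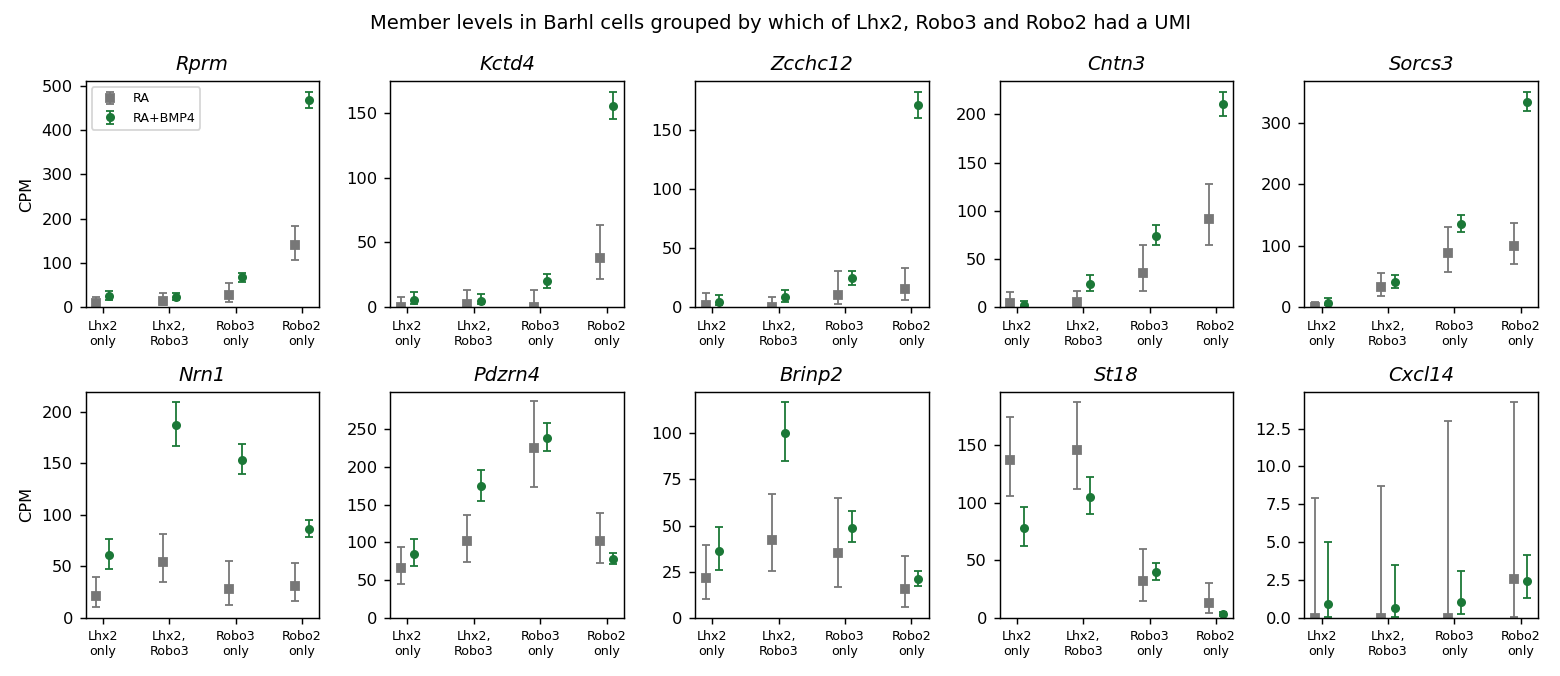
Member levels (CPM, linear axes that differ between panels) in Barhl cells with Lhx2 UMIs only, with Lhx2 and Robo3, with Robo3 only and on the Robo2 side, for RA (grey squares) and RA+BMP4 (green circles), with 95% Poisson intervals. Sorcs3 and Cntn3 climb from the Lhx2-only cells (7.23 and 1.81 CPM in RA+BMP4) through the Robo3-only cells (135 and 74.0 CPM) to the Robo2 side.

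In RA the same 3 groups held 30, 28 and 20 cells. Sorcs3 had 0 counts, 33.0 CPM and 87.9 CPM, Cntn3 had 4.27, 4.71 and 35.2 CPM, and Pdzrn4 had 66.3, 101 and 225 CPM. St18 had 137, 146 and 31.7 CPM. For these 4 genes the Robo3-only cells thus stood apart from the Lhx2-only cells in the same direction in both libraries, although with 1 library each the differences could not be tested.

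Across all 1577 RA+BMP4 Barhl cells, Pearson correlations of log2(UMIs per 10000 + 1) describe the same grouping. They share the library and the cells' depth, and the sides were cut from 3 of the genes. Robo2 correlated with Rprm at 0.60, Sorcs3 at 0.53, Cntn3 at 0.48, Kctd4 at 0.45 and Zcchc12 at 0.28. St18 correlated with Lhx2 at 0.37 and with Robo2 at -0.33. Pdzrn4 correlated with Robo3 at 0.28 and with Lhx2 at -0.05, whereas for St18 the Robo3 value was 0.19. Nrn1 and Brinp2 each correlated with Robo3 at 0.22. Rprm and Sorcs3 correlated with each other at 0.46, but Cntn3 and Zcchc12, both on the Robo2 side, at 0.00.

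**Figure D3:**
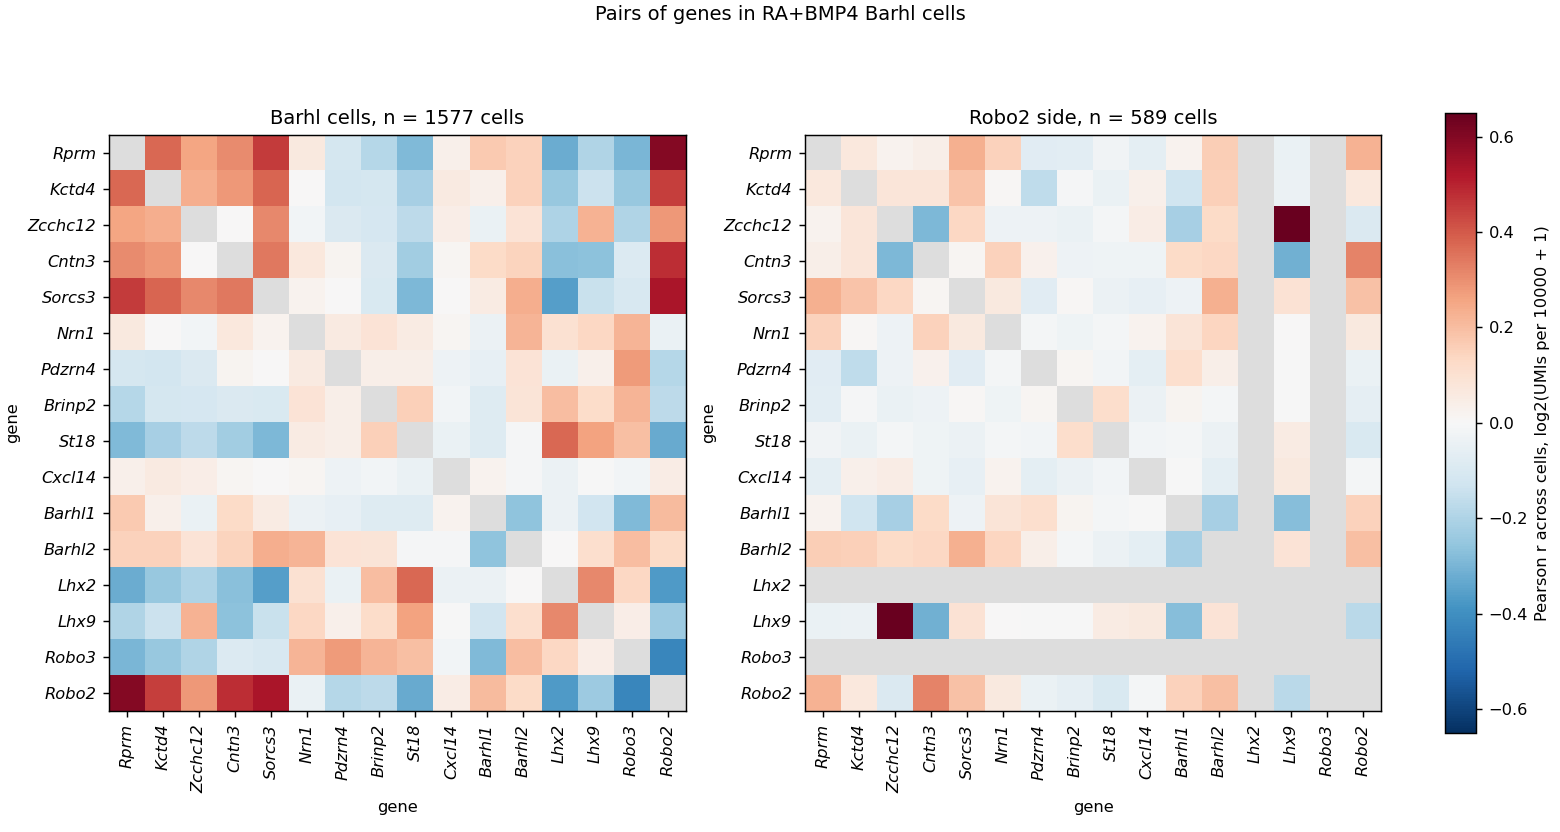
Pearson correlation (colour) of each pair of genes across RA+BMP4 Barhl cells on the left and across the Robo2 side alone on the right. Grey cells have no value because a gene is 0 in every cell by the gate, or mark a gene with itself. The left panel shows Rprm, Kctd4, Zcchc12, Cntn3 and Sorcs3 with Robo2, and the right panel shows Zcchc12 with Lhx9 (0.64) and apart from Cntn3 (-0.29).

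Among 9374 genes found in at least 5% of the 1577 cells, those most like each member were named by the same correlation. The nearest to Rprm was Chmp2b (0.62), followed by Robo2 and Gpm6a, and Chmp2b (0.47) was also nearest to Kctd4. Zfhx3, a zinc finger homeobox factor, was nearest to Sorcs3 (0.56), and Robo2 itself to Cntn3 (0.48). Zcchc12 was nearest to the growth cone gene Gap43 (0.39) and to Pou2f2 (0.39). The nearest to St18 was Ebf1 (0.42), followed by Cntn2 (0.38), and the nearest to Brinp2 was Rgmb (0.27), a BMP coreceptor. Nrn1 stood with 3 genes of glycolysis and hypoxia, Tpi1 (0.37), Bnip3 (0.34) and Ldha (0.33), rather than with a gating gene. Pdzrn4 had Grin2a (0.30), Meis2 (0.29) and Robo3 (0.28), and no gene passed 0.14 with Cxcl14.

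Within the Robo2 side the 5 genes did not run together. Across its 589 RA+BMP4 cells Zcchc12 correlated with Lhx9 at 0.64 and with Cntn3 at -0.29, and Cntn3 correlated with Lhx9 at -0.31. This split was chosen after those values were seen. The 94 cells with a Lhx9 UMI had 638 CPM of Zcchc12 (587 to 692) and the 495 without had 75.4 CPM (67.5 to 83.9), an 8.47-fold difference (7.39 to 9.72). Cntn3 went the other way with 59.7 CPM (44.9 to 77.9) and 242 CPM (227 to 257), 4.05-fold (3.08 to 5.42). Of all 7234 genes tested, 2.42% were at least 2-fold higher in the Lhx9 cells and 1.42% lower (3.84% in all), and Zcchc12 and Cntn3 were the only members among them. Sorcs3 (416 and 318 CPM), Rprm (417 and 479 CPM) and Kctd4 (137 and 159 CPM) differed by at most 1.31-fold either way. Barhl1 was lower in the Lhx9 cells (160.4 against 366 CPM) and Barhl2 was not (361 against 314 CPM). The median depths of the 2 groups were 9140 and 8623 UMIs.

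**Figure D4:**
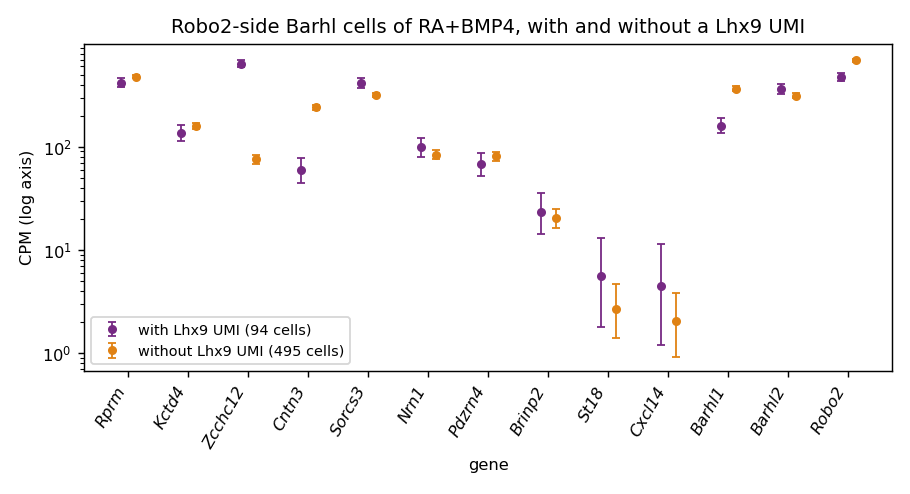
Levels (CPM, log axis) of the 10 members, Barhl1, Barhl2 and Robo2 in Robo2-side Barhl cells of RA+BMP4 with (purple, 94 cells) and without (orange, 495 cells) a Lhx9 UMI, with 95% Poisson intervals. Zcchc12 (638 against 75.4 CPM) and Cntn3 (59.7 against 242 CPM) separate in opposite directions while Rprm, Kctd4 and Sorcs3 lie close together.

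Between the libraries, 7 members were at least 2-fold higher in RA+BMP4 over all cells (Sorcs3, Cntn3, Zcchc12, Rprm, Nrn1, Brinp2 and Cxcl14) and none lower, where 0.811% of all 7151 tested genes were higher and 0.601% lower. The median log2 ratio was 1.80 for the 8 members tested and 0.07 for all genes. The members were chosen from these same counts as genes of Barhl cells, which were a larger share of cells in RA+BMP4. Nothing is therefore read from this median or from the number of members higher. Sums over all cells mix the share of Barhl cells with the level inside them, so the values inside Barhl cells are given next. There 6 members were at least 2-fold higher in RA+BMP4 and 1 was lower, where 5.03% of all 7115 tested genes were higher and 1.63% lower (6.66% in all). Given the same choice of members, nothing is read from these numbers of members either. A median-of-ratios scaling moved all log2 ratios of this comparison by 0.10. Kctd4 had 9.25 CPM in RA against 76.2 CPM (8.23-fold, 5.36 to 13.4), Zcchc12 7.05 and 78.4 CPM (11.1-fold, 6.82 to 19.5), and Sorcs3 56.8 and 194 CPM (3.42-fold, 2.87 to 4.11). Cntn3, Rprm and Nrn1 were 3.83-fold, 3.91-fold and 3.97-fold higher. St18 was lower in RA+BMP4, at 33.2 CPM against 69.6 CPM (2.10-fold, 1.74 to 2.51). That difference was under 2-fold without a cell filter (log2 -0.98) and with a Barhl limit of 1 UMI (-0.70), and its direction turned under the stricter cell filter (0.074), which left 19 RA Barhl cells. With those cells the log2 ratios of Sorcs3 (0.84) and Cntn3 (0.90) also no longer reached the 2-fold limit.

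The make-up of the Barhl cells differed between the libraries beside these values: the Robo2 side was 18.6% of them in RA and 37.3% in RA+BMP4. Within a side the direction stayed for most members. On the Robo2 side Sorcs3 went from 99.6 to 335 CPM (3.36-fold, 2.45 to 4.74) and Rprm from 140.5 to 468 CPM (3.33-fold, 2.55 to 4.44). On the Robo3/Lhx2 side Nrn1 went from 34.8 to 144 CPM (4.15-fold, 3.03 to 5.82), and St18 from 115 to 66.1 CPM (1.73-fold lower, 1.41 to 2.12). Older neuron genes summed to 3108 CPM on the Robo2 side in RA and 8317 CPM in RA+BMP4, and their part in these differences was not tested.

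Outside the Barhl cells the members were found in several groups of cells, some of them shared between members. A member's place is given by gates on raw UMIs of marker genes among the other cells, which may overlap. In RA+BMP4 the Barhl cells held 77.8% of all Kctd4 UMIs, 77.0% of Nrn1, 72.3% of Sorcs3, 67.5% of Cntn3, 54.1% of Pdzrn4, 51.3% of Rprm and 51.2% of Zcchc12. They held 25.8% of St18, 19.8% of Brinp2 and 1.04% of Cxcl14. In RA, where Barhl cells were 2.46% of all, the shares ran from 0.249% (Cxcl14) and 1.56% (Zcchc12) to 14.7% (Kctd4) and 15.5% (Sorcs3). In RA+BMP4 7 members were at least 2-fold higher in Barhl cells than in other cells and 1, Cxcl14, lower, where 10.3% of 7700 tested genes were higher and 10.9% lower. In RA 6 were higher and none lower, where 4.78% and 9.27% of 7253 tested genes were. Because the members were chosen as genes of Barhl cells in these same counts, nothing is read from these numbers of members.

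Sorcs3, Kctd4 and Nrn1 had their highest level in the Barhl cells of both libraries, and the next group did not reach their interval. For Sorcs3 in RA+BMP4 the next were cells in no gate (32.7 CPM), then Pax2 cells (19.9 CPM), and for Nrn1 they were Pou4f1 cells (18.4 CPM) and Foxd3 cells (16.4 CPM). The 46 cells outside the Barhl group with at least 2 Kctd4 UMIs had 384 CPM of Sorcs3 against 11.8 CPM in the remaining cells. Of the 340 RA+BMP4 cells with at least 2 Kctd4 UMIs, 294 were Barhl cells, 23 had 1 Barhl UMI and 23 had none. Sorcs3 and Nrn1 were also above their level in the remaining cells just outside the Barhl limit. In RA+BMP4 751 cells with 1 Barhl UMI had 36.3 CPM of Sorcs3, 269 with exactly 2 had 143 CPM, and the 6005 with none had 10.6 CPM. Nrn1 had 4.81, 13.6 and 104 CPM at 0, 1 and 2 Barhl UMIs. Rprm had 41.7 CPM (40.3 to 43.2), 48.8 CPM (44.5 to 53.4) and 169 CPM, so that cells with 1 Barhl UMI lay close to those with none.

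Cntn3 was also found in cells gated on Cp and Colec12, at 25.5 and 25.4 CPM in RA and RA+BMP4, and in Wnt1/Rspo3 cells at 21.9 and 14.3 CPM. Wnt1 and Rspo3 are genes of the roof plate and its border. In RA the Barhl and Cp/Colec12 intervals overlapped, so Cntn3 did not single out Barhl cells there. Cells outside the Barhl group with at least 2 Cntn3 UMIs had 218 CPM of Cp in RA, against 27.3 CPM in the others, and 109 against 16.8 CPM in RA+BMP4.

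Rprm was broad. In RA its level was 64.3 CPM in cells of no gate and 63.0 CPM in Barhl cells, with overlapping intervals, and in RA+BMP4 Isl1 cells had 86.3 CPM against 246 CPM in Barhl cells. The leading genes by ratio of the RA cells outside the Barhl group with at least 2 Rprm UMIs were Tnnc1 (50.7 against 2.52 CPM) and Myl4 (51.3 against 7.57 CPM), both muscle genes. Both lay just above the 50 CPM needed to be listed. They were followed by Hopx (69.9 against 14.9 CPM), Sncg (68.5 against 19.01 CPM) and Fabp7, which had by far the highest level (3727 against 1127 CPM). In RA+BMP4 they were Syt4 (85.2 against 7.38 CPM) and Sncg (83.9 against 12.2 CPM), genes of neurons, followed by Isl1, Sorcs3 and Gap43.

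Zcchc12 differed between the libraries in where it was found. In RA its level in Barhl cells was 7.05 CPM (4.03 to 11.4), between the 7.58 CPM of Pou4f1 cells and the 5.61 CPM of Isl1 cells with overlapping intervals, and the highest level was 13.4 CPM in cells of no gate. In RA+BMP4 Barhl cells had 78.4 CPM and the next groups, cells of no gate and Pax2 cells, 24.5 and 13.1 CPM. Of its cells outside the Barhl group in RA+BMP4, those with at least 2 UMIs had Lhx9 at 65.3 CPM against 2.53 CPM in the others. All 367 RA+BMP4 cells with at least 2 Zcchc12 UMIs comprised 198 Barhl cells, 35 with 1 Barhl UMI and 134 with none.

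St18 was not highest in Barhl cells in RA+BMP4, although summed over all other cells it was lower than in Barhl cells (log2 ratio of Barhl over other cells 0.93 in RA+BMP4 and 1.96 in RA). In RA+BMP4 it was higher in Foxd3 (97.0 CPM), Pou4f1 (89.5 CPM), Pax2 (83.8 CPM) and Neurod4 cells (81.0 CPM) than in Barhl cells (33.2 CPM), and the intervals of the first 4 overlapped in order. In RA Barhl cells (69.6 CPM), Pax2 cells (65.8 CPM) and Neurod4 cells (59.0 CPM) did not differ beyond their intervals. Cells outside the Barhl group with at least 2 St18 UMIs had high Nhlh1, a gene of newborn neurons, at 160.1 against 16.5 CPM in RA and 209.8 against 20.25 CPM in RA+BMP4.

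Pdzrn4 was next highest in Pou4f1 cells in RA (73.3 CPM, against 112 CPM in Barhl cells) and in Foxd3 cells in RA+BMP4 (108 CPM, against 140.2 CPM). Foxd3 is a factor of dI2 neurons and neural crest, and RA Foxd3 cells had 38.2 CPM of Pdzrn4. After thinning, a Pdzrn4 UMI was found in 37.0% of Foxd3 cells and 33.6% of Barhl cells of RA+BMP4, and in 0 of 175 cells of the pluripotency gate, so that up to 1.71% (3 cells) could hold one; this limits cells in which a UMI is found, not cells that express the gene.

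Brinp2 was at least as high in some other cells as in Barhl cells. In RA+BMP4, Tlx3 cells had 51.2 CPM (45.6 to 57.2), Wnt1/Rspo3 cells had an overlapping interval of 47.6 to 52.5 CPM, and Barhl cells had 38.9 CPM (35.9 to 42.1). In RA, Barhl cells (28.6 CPM) and Isl1 cells (23.8 CPM) overlapped, and Wnt1/Rspo3 cells had 17.4 CPM. The 2495 Wnt1/Rspo3 cells held 1645 of the Brinp2 UMIs of RA+BMP4, more than the 608 of the Barhl cells.

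In both libraries the Cxcl14 level was highest in cells with many UMIs of collagen genes, and the groups below 20 collagen UMIs were set after the data were seen. In cells outside the Barhl group with at least 20 UMIs of Col1a1 and Col1a2 together it had 13.7 CPM in RA (204 cells) and 172 CPM in RA+BMP4 (147 cells). After thinning, 3.43% and 33.3% of these cells had a Cxcl14 UMI. RA+BMP4 cells with 5 to 19 collagen UMIs had 147.5 CPM, those with 1 to 4 had 23.4 CPM and those with none 4.61 CPM, whereas in RA the same groups had 9.61, 3.44 and 2.79 CPM. Of all Cxcl14 UMIs of RA, 58.6% were in cells with no collagen UMI outside the Barhl group and 22.2% in those with at least 20, against 13.4% and 25.7% in RA+BMP4. The RA pluripotency gate had 4.99 CPM, but with 96 counts it held more than the 89 of the collagen gate. Cells with at least 2 Cxcl14 UMIs in RA+BMP4 were led by Fibin (107 against 4.97 CPM), Tbx15, Inhba, Lrrc17 and Grem1, and in RA by Calcoco2, Dazl, Lix1, Tdh and Fbxo15, of which Tdh and Fbxo15 are genes of mouse embryonic stem cells and Dazl is a germ cell gene.

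**Figure D5:**
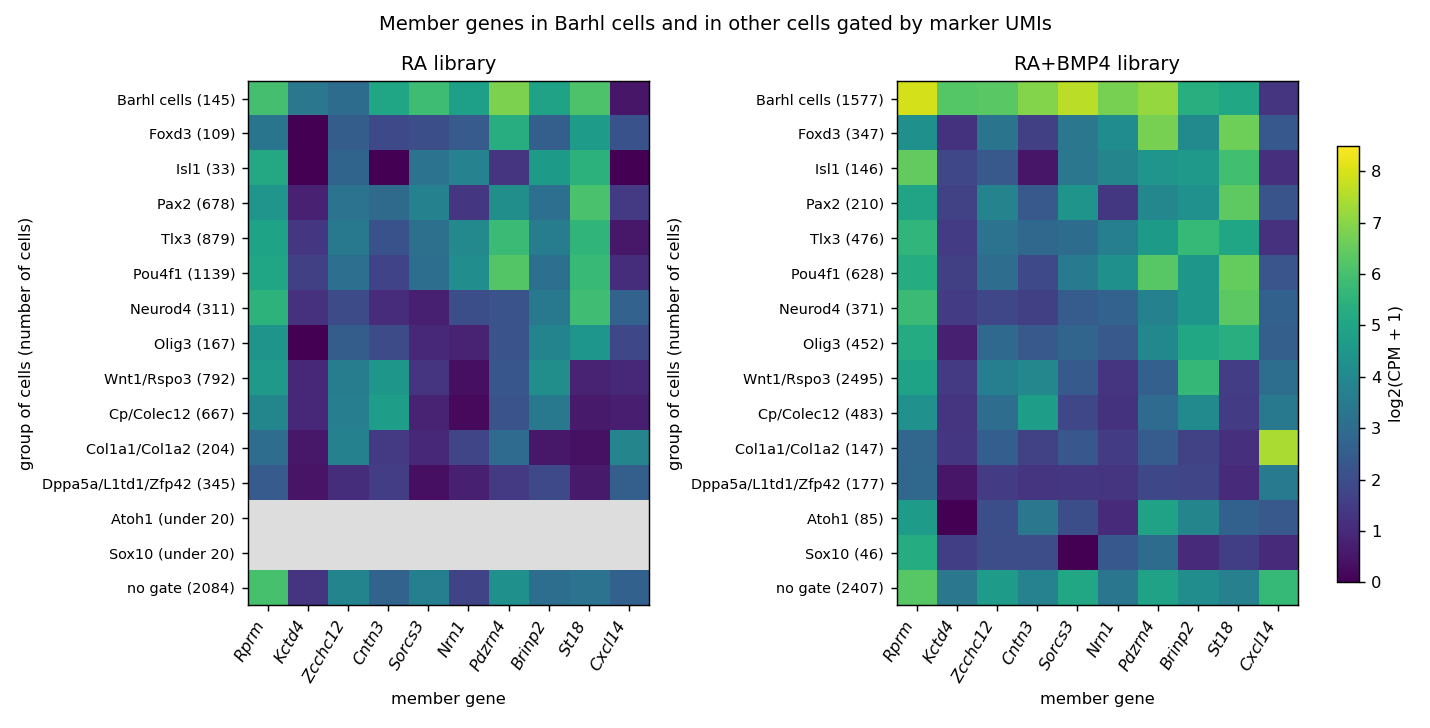
Level of each member, as log2(CPM + 1) by colour, in Barhl cells (top row) and in other cells gated by marker UMIs, with the number of cells in brackets, for RA on the left and RA+BMP4 on the right. Grey rows are gates with under 20 cells. Rows overlap in cells except the first and last. In RA+BMP4 the top row is brightest for Rprm, Kctd4, Zcchc12, Cntn3, Sorcs3, Nrn1 and Pdzrn4, while Cxcl14 is brightest in Col1a1/Col1a2 cells (172 CPM) and St18 in Foxd3 cells (97.0 CPM).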

How the data were processed

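Single-cell RNA-seq counts were analysed for 1 library of each condition, the RA and the RA+BMP4 differentiation. The deposited matrices hold UMI counts per gene and cell barcode, made by the authors with Cell Ranger 3.0.2 on GRCm38, per the submitters' processing notes, and the strand setting of the counting is not stated there. From them, cells were retained if they had 1000 or more genes and no more than 10% of UMIs from mitochondrial genes, and Scrublet (scanpy 1.11.5, expected rate 8%) removed 142 RA and 317 RA+BMP4 barcodes. UMIs were summed over each group of cells and scaled to CPM. Intervals at 95% are exact Poisson for levels, exact conditional binomial for ratios and Clopper-Pearson for shares, computed with scipy 1.17.1, and they cover counting error only. A gene was tested in a comparison at 20 CPM in either group, and it was called at a ratio of 2 with counts under 3 set to 3. Ratios printed with an interval use the counts as found, and the limit for a share of 0 is 3 cells. The ratio and call functions recovered the direction of planted differences on Poisson counts simulated from the RA+BMP4 sides. Differences were planted only at 20 CPM or more, with no added spread between cells, and RA was not simulated. Outside the Barhl cells, gates were Atoh1, Foxd3, Isl1, Pax2, Tlx3, Pou4f1, Neurod4, Olig3 or Sox10 at 2 UMIs, and combined limits for Wnt1/Rspo3, Cp/Colec12, Col1a1/Col1a2 and Dppa5a/L1td1/Zfp42.

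The members, gene lists and gates were chosen with earlier results of these data known. Besides the members and gating genes, the text names the 10 genes at each end of the RA+BMP4 side ratio, the 3 most correlated with each member, the 5 leading each member's cells elsewhere and genes of the lists. Alternatives changed the cell filter (none, doublets kept, or a stricter one of 2000 genes and 5% mitochondrial UMIs), the Barhl and side gates, depth, weighting of cells, neuronal age and the CPM minimum.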

Additional observations from a re-analysis of the deposited data

Results flagged for a closer look

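The ratio of Zcchc12 in Barhl cells over other cells was above 1 in RA+BMP4 and below 1 in RA, but its direction in RA is not established. Its log2 ratio of Barhl cells over other cells was 2.53 in RA+BMP4 (78.4 against 13.6 CPM) and -0.43 in RA (7.05 against 9.49 CPM, from 16 counts in Barhl cells). The RA ratio had an interval of 0.423 to 1.21, which holds 1. Under the stricter cell filter, which left 19 RA Barhl cells, the RA log2 ratio was 0.76, above 0 as in RA+BMP4, and over the other settings tried in RA it ran from -0.51 to -0.24. The difference between the libraries was not tested.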

How the results depend on the processing

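No paired analysis was possible because each condition has 1 library, and for the same reason no replicate could be left out. In RA+BMP4 the member calls between the sides changed by at most 1 member (Pdzrn4 lost with Lhx2 alone or fewer older neuron genes, Nrn1 or Cxcl14 gained), while all genes apart numbered 559, 1190 at 5 CPM and 2163 with no minimum. In RA the sides rested on 27 and 78 cells. There the 2 members lower on the Robo2 side became 1 with Barhl limits of 1 or 4 UMIs, Lhx2 alone, thinning, equal weight of cells, either group by neuronal age, or without pluripotency-gate and Sox2 cells, and 0 under the stricter cell filter. The 4 higher became 0 in the group with fewer older neuron genes, where Sorcs3 and Kctd4 had no count on either side. Brinp2's RA log2 ratio reversed to 0.18 with Lhx2 alone, 0.32 after thinning and 1.19 under the stricter filter. All genes apart in RA were 858, and 531 and 1326 with Barhl limits of 1 and 4 UMIs, 2786 thinned, 1377 in the group with fewer older neuron genes, 2118 at 5 CPM and 2412 with no minimum.

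For Barhl against other cells, the stricter filter gave 2081 genes in RA (1019 as reported) and a Barhl limit of 1 UMI gave 315 in RA and 736 in RA+BMP4 (1631 as reported). At 5 CPM there were 2145 and 2891 genes, and with no minimum 9049 and 7618. Members lower numbered 1 in RA with no minimum (Cxcl14) and 0 in RA+BMP4 with equal weight of cells. Between libraries over all cells, 101 genes became 184 under the stricter filter, 320 at 5 CPM and 2271 with no minimum. In Barhl cells 474 became 852, 1127 and 4115, and St18, the 1 member lower in RA+BMP4, was no longer called (0 members) without a cell filter, under the stricter filter (log2 ratio 0.074, reversed) or with a Barhl limit of 1 UMI. The cause of these changes was not tested, except that a lower CPM minimum tests more genes.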
